A study of Caenorhabditis elegans with 2 samples.

Results

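Argonaute proteins carry small RNAs to complementary transcripts, and in Caenorhabditis elegans they work with Dicer, RNA-dependent RNA polymerases and a set of helicases and nucleases that make or amplify those small RNAs. The transcripts of these genes were compared between worms raised with amide single-walled carbon nanotubes (a-SWCNT) and worms raised without them. The list named 42 genes, of which 41 names were found in the reference gene table; the name left over, mut-2, is an alternative name of rde-3, which was on the list as well. Members were taken as the array's probe sets, groups of short probes read out as 1 signal, that the annotation assigns to a single gene. Such probe sets existed for 39 members, out of 17118 genes with one on the array, and 38 of the 39 were measured on at least 1 array. The Argonaute genes ppw-1 and sago-2 shared 1 probe set and had none of their own.

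The a-SWCNT group was the wild-type strain N2 raised from synchronised L1 larvae with a-SWCNT at 500 μg/mL, the exposure lasting 48 hr at 22 °C, and the control group was N2 grown for the same time at the same temperature without nanotubes. Both samples were whole animals labelled as L4, the final larval stage, and each group had 1 array. No value therefore has a replicate, an error between cultures or a p-value, and precision is limited by that number of arrays. RNA of whole worms mixes all tissues, so that fewer cells of a type and less RNA per cell cannot be told apart.

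Worm small RNA pathways divide the work among many Argonautes. MicroRNAs are cut from hairpins by the Drosha and Dicer nucleases and loaded into ALG-1 and ALG-2, which repress messenger RNAs, among them those of developmental timing genes. Small interfering RNAs start from double-stranded RNA or from templates copied by an RNA-dependent RNA polymerase, and Piwi-class small RNAs are genomically encoded and act mainly in the germ line. The primary small interfering RNAs and the Piwi-class small RNAs direct the synthesis of abundant secondary small RNAs. These are bound by the worm-specific Argonautes (WAGO proteins), which act on germline genes, transposons and foreign sequences. CSR-1 also binds small RNAs made by an RNA-dependent RNA polymerase.

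The deposited signals differed in overall level between the arrays, with trimmed means of 83.3 on the a-SWCNT array and 208.6 on the control array, and the a-SWCNT array was multiplied by 2.50 to bring it to the control's. All signals below are after this scaling. Signals of 56.7 or more, the median of the worm probe sets over both arrays, were taken as measured, this floor replaced lower signals in a ratio, and a ratio to a signal under it is a bound. A gene's log2 ratio, a-SWCNT over control, is the mean over its probe sets measured on at least 1 array. Over 1626 genes with 2 measured probe sets, the log2 ratios of the pair differed by a median of 0.42, with a 95th percentile of 1.37. Such gaps are the only guide to error that these arrays offer, and they do not measure variation between cultures.

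Transcripts of 5 members were at least 2-fold lower in a-SWCNT worms and 0 members at least 2-fold higher. The 5 were the microRNA Argonaute genes alg-1 and alg-2, the sperm Argonaute gene alg-4, and the helicase genes drh-3 and rde-12, which serve the making of secondary small RNAs. Of the 5, alg-1 (-1.63) lay further from 0 than the 95th percentile of gaps between probe sets of a gene, drh-3 (-1.36) lay next to it, and the others lay between it and the median gap. The 5 members made up 13.2% of the 38 measured members, against 2.86% of all 9382 measured genes that were at least 2-fold lower and 1.42% that were at least 2-fold higher. That contrast depended on the floor: with none, the share at least 2-fold lower was 2.56% of 39 members against 11.2% of all genes. At 1.5-fold, 7 members (18.4%) were lower and 0 higher, against 11.6% of all genes lower and 8.04% higher. Below 0 were 29 of 38 members (76.3%), against 52.1% of all genes. The median log2 ratio of the members was -0.20, against -0.02 for all genes, and the middle part of the members, between the quartiles, ran from -0.49 to -0.01.

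**Figure D1:**
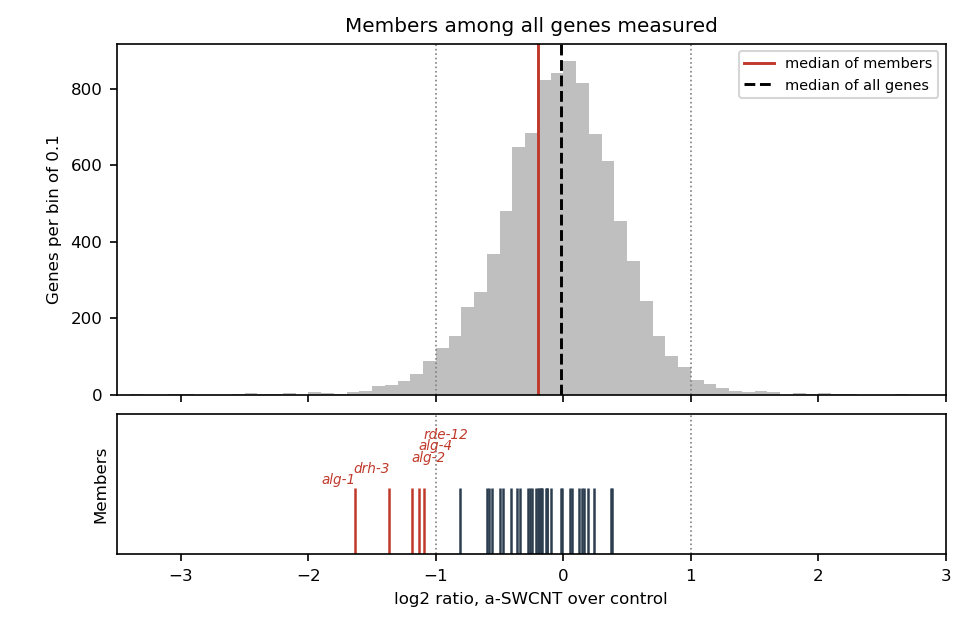
The upper panel counts all 9382 measured genes in bins of 0.1 of the log2 ratio, a-SWCNT over control, with the medians of the members (-0.20) and of all genes (-0.02) as vertical lines. In the lower panel each line is 1 of the 38 measured members; the 5 in red lie past the dotted line of 2-fold lower, and none reaches the line of 2-fold higher.

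The lowest member belonged to the microRNA route. The alg-1 probe set that was measured had a signal of 42.1 in a-SWCNT worms, below the floor, and of 176 in control worms, so that it was at least 3.10-fold lower, and alg-1 ranked 32 from the lowest among all measured genes. In alg-2, the close relative of alg-1, the signal was 74.0 in a-SWCNT worms and 169 in control worms (2.28-fold lower, rank 132). Both microRNA Argonautes were thus past the threshold, each by 1 probe set.

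Their other probe sets were below the floor on both arrays and gave no ratio to set beside these. For alg-1 these gave 43.5 in a-SWCNT and 50.8 in control worms, and 42.6 in a-SWCNT and 27.1 in control worms. For alg-2 the other probe set gave 40.0 in a-SWCNT and 46.0 in control worms. Signals of this size carry no ratio under the floor used, and averaging them in without a floor gave -0.54 for alg-1 and -0.70 for alg-2.

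The rest of the microRNA route lay closer to 0. The 3 probe sets of ain-1, a GW182-family partner that joins ALG-1 and ALG-2 to the silencing machinery, had 171, 146 and 105 in a-SWCNT worms against 255, 190 and 115 in control worms. All 3 were lower in a-SWCNT worms, with log2 ratios of -0.58, -0.38 and -0.13. The Drosha gene drsh-1 had 81.0 in a-SWCNT and 98.2 in control worms (-0.28), and its partner pash-1 had 63.4 in a-SWCNT worms and 44.3, below the floor, in control worms (at least 1.12-fold higher). Neither gene for the hairpin-cutting complex was past 2-fold, and the difference of drsh-1 was smaller than the median gap between probe sets of 1 gene.

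**Figure D2:**
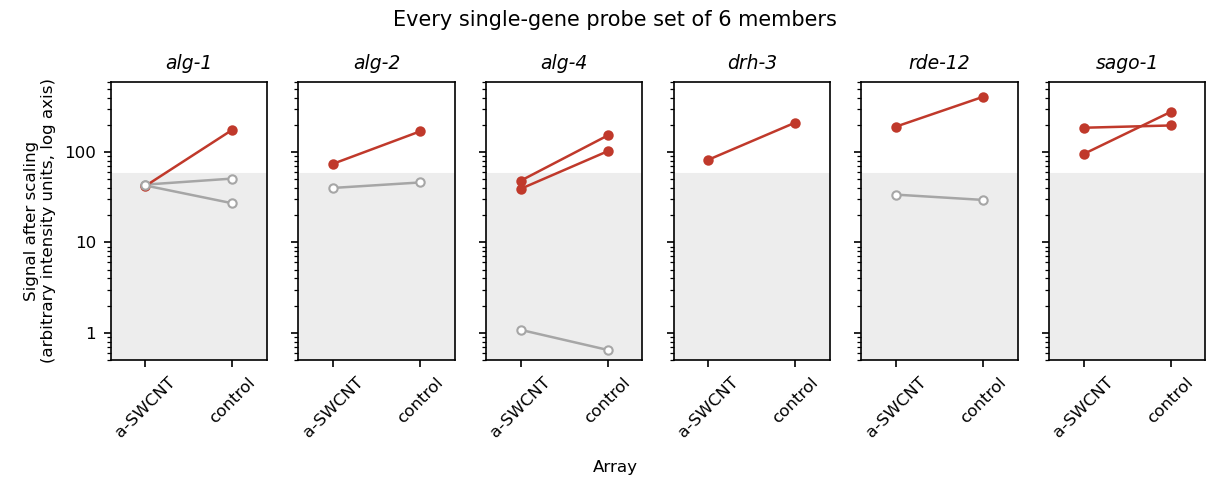
Signal after scaling (log axis) of every single-gene probe set of 6 members on the a-SWCNT array (left) and the control array (right), with lines joining the same probe set. Red probe sets were measured on at least 1 array, grey ones were below the floor (shaded) on both; alg-1, alg-2 and rde-12 each had 1 red probe set, lower in a-SWCNT worms, beside grey ones that give no ratio, and the 2 red probe sets of sago-1 disagreed.

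Of the genes for the primary steps of interference by double-stranded RNA, none was 1.5-fold different with the floor used. Dicer itself, dcr-1, had 157 in a-SWCNT and 177 in control worms (-0.17). Its double-stranded RNA-binding partner rde-4 had 315 in a-SWCNT and 360 in control worms (-0.19). These were small differences of the same direction.

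The Argonaute gene rde-1, which receives the small RNAs cut from foreign double-stranded RNA, was measured by 2 probe sets. They had 189 and 43.0 in a-SWCNT worms against 230 and 67.0 in control worms, with log2 ratios of -0.28 and -0.24. The -0.24 is a bound, because 43.0 was below the floor. The helicase gene drh-1, a relative of mammalian RIG-I with a part in antiviral defence, went slightly the other way, with 132 in a-SWCNT and 118.8 in control worms (0.15). The sign of drh-1 changed when the arrays were set to equal hybridisation controls (-0.04). Another drh-1 probe set, below the floor on both arrays, had 3.32 in a-SWCNT and 9.53 in control worms. With no floor, drh-1 was at -0.69.

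Transport of double-stranded RNA into cells was represented by 2 members. The channel gene sid-1 had 53.6 in a-SWCNT worms, below the floor, and 75.5 in control worms (at least 1.33-fold lower). The gene sid-2, needed for uptake from the gut lumen, had 337 in a-SWCNT and 321 in control worms (0.07, with a sign that changed between scalings). Neither reached 1.5-fold.

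**Figure D3:**
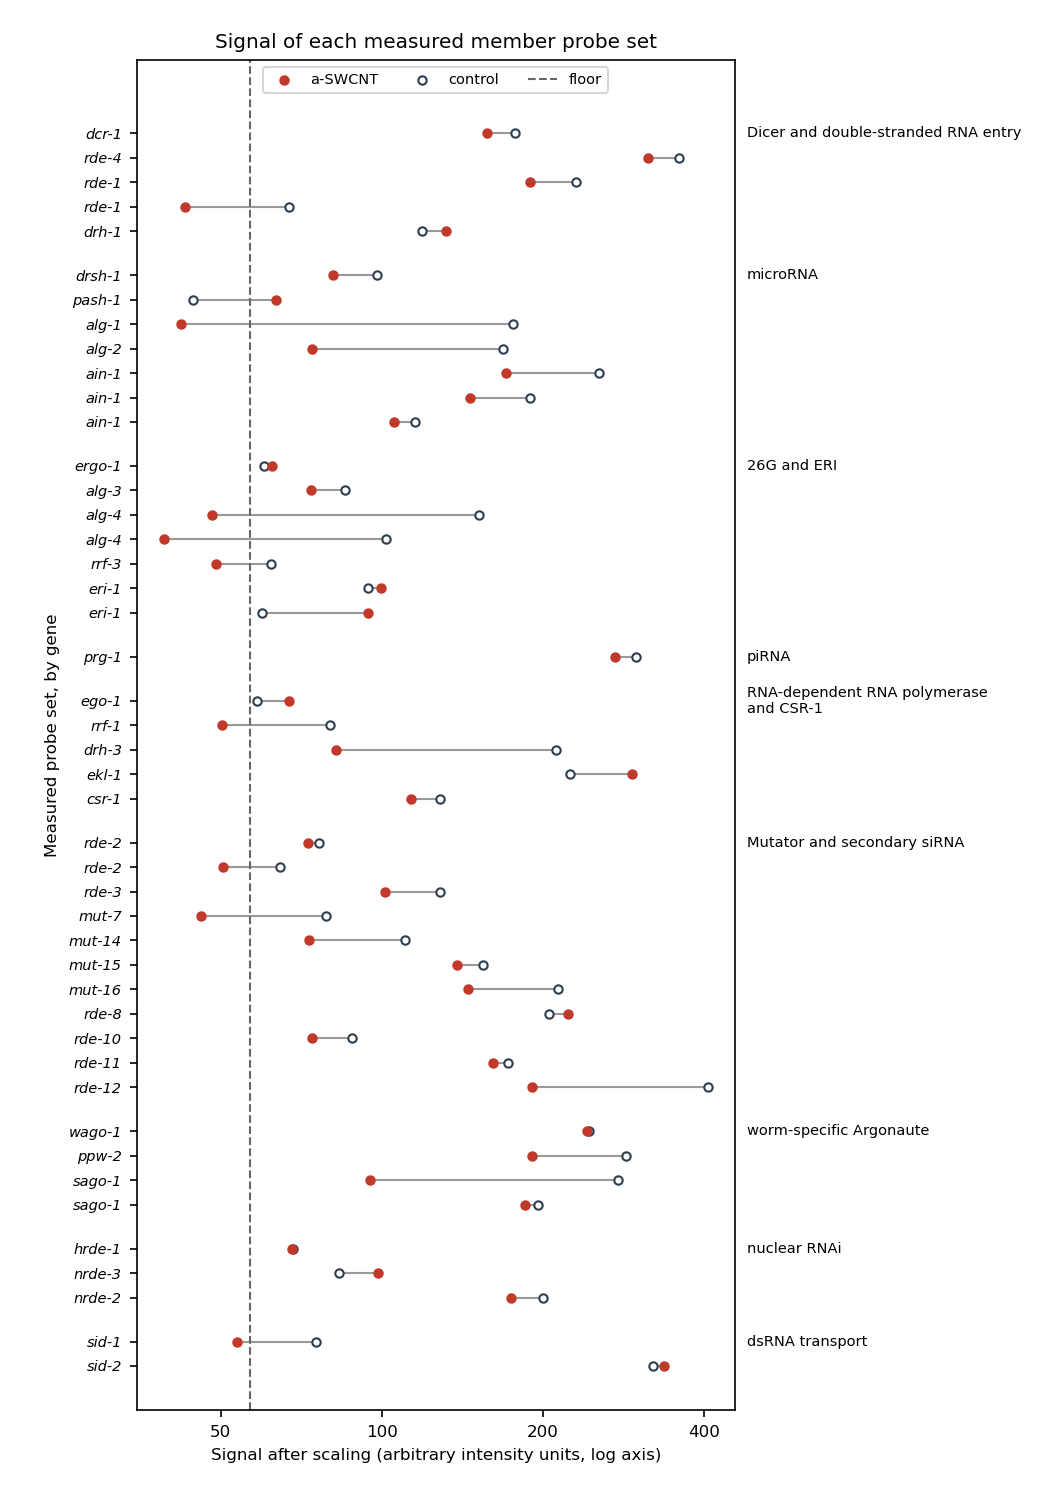
Signal after scaling (log axis) of the 45 member probe sets measured on at least 1 array, in a-SWCNT worms (filled red) and control worms (open), grouped by role, with the floor of 56.7 as a dashed line. The long bars with the red point on the left belong to alg-1, alg-2, alg-4, drh-3, rde-12 and 1 probe set of sago-1; most other pairs lie close together.

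Among genes of the endogenous primary small interfering RNAs, alg-4 stood apart. The Argonautes ALG-3 and ALG-4 are made during sperm formation and act on sperm genes, while ERGO-1 serves the oocyte and embryo. The 2 measured probe sets of alg-4 had 48.1 and 39.1 in a-SWCNT worms, both below the floor, against 152 and 102 in control worms, at least 2.68-fold and at least 1.80-fold lower. A further alg-4 probe set was near the bottom of the scale on both arrays, at 1.08 in a-SWCNT and 0.646 in control worms. By their type, all 3 alg-4 probe sets may bind more than 1 similar transcript.

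The related alg-3 had 73.7 in a-SWCNT and 85.6 in control worms (-0.21), and ergo-1 had 62.4 in a-SWCNT and 60.2 in control worms (0.05, with a sign that changed between scalings). The polymerase gene rrf-3, which copies the templates of this class, had 48.99, below the floor, in a-SWCNT worms and 62.0 in control worms. The exonuclease gene eri-1, whose loss makes worms more sensitive to interference, was higher in both probe sets, with 99.8 and 94.3 in a-SWCNT worms against 94.5 and 59.6 in control worms (0.08 and 0.66). The mean of eri-1 was 0.37, and it was among the 2 highest members. The Piwi Argonaute gene prg-1 had 272 in a-SWCNT and 299 in control worms (-0.13).

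The polymerases and partners that make secondary small RNAs went in both directions. The helicase gene drh-3, which acts with the polymerases EGO-1 and RRF-1 and the Tudor-domain protein EKL-1, had 82.1 in a-SWCNT and 211 in control worms, 2.58-fold lower, and ranked 74 from the lowest among all genes. Its probe set was the only one for the gene and was measured on both arrays. By contrast, ekl-1 was the highest member, with 294 in a-SWCNT and 225 in control worms (0.38, or 1.30-fold higher), while its other 2 probe sets were below the floor. Proteins of the same enzyme module thus had their transcripts near opposite ends of the member list.

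The polymerase genes themselves had signals close to the floor. For ego-1, the polymerase of the germ line, the signals were 67.0 in a-SWCNT and 58.6 in control worms (0.19). For rrf-1, the neighbouring gene with 0 protein-coding genes in between in the WBcel235 reference table, they were 50.3, below the floor, in a-SWCNT and 80.2 in control worms (at least 1.41-fold lower). CSR-1, an essential germline Argonaute that takes up the small RNAs made by EGO-1, had csr-1 signals of 114 in a-SWCNT and 128 in control worms (-0.18).

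The Mutator proteins gather at the rim of germ granules and amplify secondary small RNAs. Their genes were grouped with others of the secondary small RNA pathway, such as rde-10, rde-11 and rde-12. In this group 9 of the 10 measured genes were below 0, at a median of -0.29. Among all genes 52.1% were below 0, with a median of -0.02. The lowest was rde-12, a DEAD-box helicase gene, with 191 in a-SWCNT and 407 in control worms, 2.13-fold lower (rank 188). A second rde-12 probe set, below the floor, gave 33.7 in a-SWCNT and 29.5 in control worms. With rde-12 at -1.09 inside the 2-fold threshold and sago-1 at -0.81 outside it, the threshold fell in a gap of the member values.

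A further pair of genes of the group were near 1.5-fold lower. The DEAD-box helicase gene mut-14 had 73.1 in a-SWCNT and 111 in control worms (-0.60), while a probe set it shares with ZC317.1 had 74.2 in a-SWCNT and 82.3 in control worms (-0.15). The scaffold gene mut-16, whose product holds the Mutator proteins together, had 145 in a-SWCNT and 213 in control worms (-0.56). The 3'-5' exonuclease-like gene mut-7 had 46.0, below the floor, in a-SWCNT and 78.7 in control worms (at least 1.39-fold lower). Its other probe set, just below the floor in a-SWCNT worms, went the other way, at 55.7 in a-SWCNT and 32.2 in control worms. With the floor at the 25th percentile, where both probe sets count, mut-7 was at 0.009.

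The rest of the group differed little. The nucleotidyltransferase gene rde-3 had 101 in a-SWCNT and 128 in control worms (-0.34), rde-10 had 74.1 in a-SWCNT and 87.9 in control worms (-0.25), and its partner rde-11 had 161 in a-SWCNT and 172 in control worms (-0.10). The values of mut-15 were 138 in a-SWCNT and 155 in control worms (-0.16), and those of the 2 rde-2 probe sets were 72.8 and 50.6 in a-SWCNT and 76.5 and 64.4 in control worms. The endonuclease gene rde-8 was the one gene above 0, with 223 in a-SWCNT and 205 in control worms (0.12). Another rde-8 probe set, below the floor on both arrays, had 15.5 in a-SWCNT and 40.9 in control worms. With the floor at the 25th percentile, rde-8 was at -0.62. The signs of rde-8 and rde-11 changed between scalings.

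**Figure D4:**
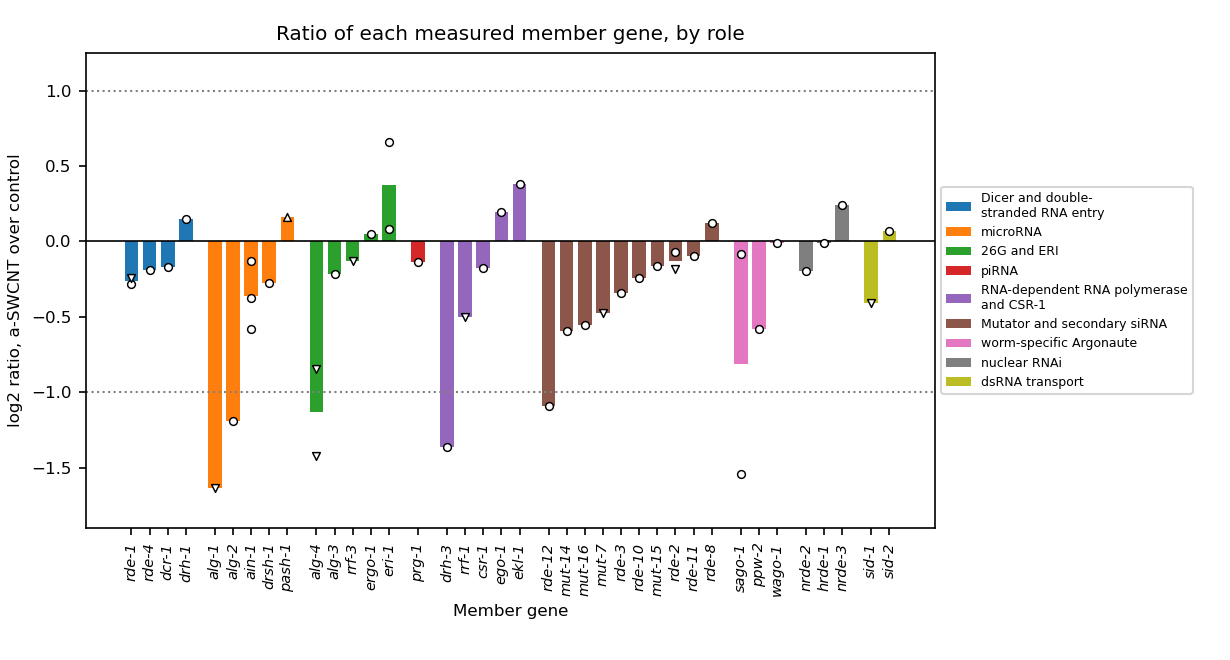
Log2 ratio, a-SWCNT over control, of the 38 measured members by role. Bars are gene means, circles are probe sets measured on both arrays, and triangles pointing down or up are bounds where the signal in a-SWCNT or in control worms was under the floor; dotted lines mark 2-fold. The bars past the lower dotted line are alg-1, alg-2, alg-4, drh-3 and rde-12.

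The worm-specific Argonautes that bind secondary small RNAs were measured for 3 genes with probe sets of their own. All 3 were below 0, as were 52.1% of all genes. Of the 3, wago-1 was at -0.014 and changed sign between scalings. The signals of sago-1 disagreed between probe sets, at 95.05 in a-SWCNT and 277 in control worms in one (2.91-fold lower) and at 185 in a-SWCNT and 196 in control worms in the other (1.06-fold lower). The gap of 1.46 was beyond the 95th percentile of such gaps over all genes, so the mean of -0.81 describes neither probe set. The germline gene ppw-2 had 191 in a-SWCNT and 286 in control worms (-0.58).

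The value of wago-1, an Argonaute that silences transposons and aberrant transcripts in germ granules, was nearly level, at 242 in a-SWCNT and 244 in control worms (-0.014). The probe set shared by ppw-1 and sago-2 was level too, at 639 in a-SWCNT and 620 in control worms (0.04). The single-gene probe set of wago-4, a gene for inheritance of silencing, was under the floor on both arrays, at 18.0 in a-SWCNT and 20.8 in control worms, and a probe set shared with C06A1.4 had 79.1 in a-SWCNT and 100.2 in control worms.

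Nuclear Argonautes carry secondary small RNAs to chromatin, where they reduce transcription. HRDE-1, which does so across generations in the germ line, had hrde-1 signals of 67.9 in a-SWCNT and 68.4 in control worms. NRDE-3, its counterpart in the soma, had nrde-3 signals of 98.4 in a-SWCNT and 83.1 in control worms (0.24). Their common partner nrde-2 had 175 in a-SWCNT and 200.1 in control worms (-0.20). With the floor used, the nuclear branch held no member at 1.5-fold. The other hrde-1 probe sets, below the floor on both arrays, had 3.99 and 19.1 in a-SWCNT worms against 10.7 and 31.5 in control worms. With no floor, hrde-1 was at -0.72.

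Divided another way, the 13 measured Argonautes had a median of -0.21 with 3 at least 2-fold lower, and the 25 other measured members had a median of -0.19 with 2 at least 2-fold lower, where all genes had a median of -0.02 and 2.86% at least 2-fold lower. Related genes often had unlike values. After the values had been seen, pairs of similar genes were set side by side, some with a partner that was not on the member list. The log2 ratio was -1.63 for alg-1 and -1.19 for alg-2, -0.21 for alg-3 and -1.13 for alg-4, -0.13 for prg-1 and -1.40 for prg-2, and 0.15 for drh-1 and -0.89 for drh-2. The members of the last 3 pairs lay 0.92, 1.27 and 1.04 apart, between the median and the 95th percentile of gaps between probe sets of a single gene. For mut-14 and smut-1 the ratios were -0.60 and -0.18, and for ain-1 and ain-2 they were -0.36 and -0.07. The ain-2 value is the mean of probe sets that disagreed in sign (-0.64 and 0.49), and it changed sign between scalings. Where probe sets may bind several transcripts, as those of prg-1, alg-3, alg-4, drh-1, drh-2 and mut-14 may, the share of each gene in the signal is uncertain.

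Genes of the same pathways outside the member list were read from lists of other Argonautes and other small RNA factors. Of 4 other Argonautes measured, 1 (25%) was at least 2-fold lower, against 2.86% of all genes, and 0 were 2-fold higher. The 1 was prg-2, the second Piwi gene, at 122 in a-SWCNT and 321 in control worms (2.64-fold lower). The next lowest was wago-2 (-0.74), and vsra-1 was the highest (0.66). Of 34 other small RNA factors, 22 (64.7%) were below 0, against 52.1% of all genes. Their median was -0.18, against -0.02 for all genes. Of the 34, 1 was at least 2-fold lower and 0 reached 2-fold higher. That gene was deps-1, which encodes a protein of germ granules and had 108 in a-SWCNT and 256 in control worms (2.36-fold lower). Next came drh-2 (-0.89), and the highest were the microRNA cofactor gene nhl-2 (0.47) and rsd-6 (0.42). The share at least 2-fold lower in this larger list, 2.94%, lay close to the 2.86% of all genes.

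Messenger RNAs known as microRNA targets were looked at beside alg-1 and alg-2. Of 5 measured target genes, 3 were above and 2 below 0 and none was 2-fold different, at a median of 0.31. No direction of this list held throughout: its median was 0.01 with the floor at the 25th percentile, -0.40 with it at the 75th (2 genes), -0.70 with no floor (5 of 7 genes below 0) and -0.16 without probe sets that may bind several transcripts (3 genes). The timing genes lin-41, with 143 in a-SWCNT and 108 in control worms, and hbl-1, with 167 in a-SWCNT and 130 in control worms, were at 0.40 and 0.36, and lin-28, named after its value was seen, was at 0.31. The nuclear receptor gene daf-12 was at -0.63 and the ras gene let-60 at -0.16. Each of the values above 0 was smaller than the median gap between probe sets of a gene, and lin-14 and cog-1 were below the floor on both arrays.

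Many members act in the germ line, and germline markers went in both directions. Of 15 germline markers 10 were below 0 and 5 above 0, against 52.1% of all genes below 0, and 2 were at least 2-fold lower, namely gld-1 (192 in a-SWCNT and 498 in control worms) and oma-1 (125 in a-SWCNT and 261 in control worms), 13.3% against 2.86% of all genes. Their median was -0.33 and their summed signal was 4040 in a-SWCNT and 5182 in control worms. None of the germline markers was under the floor on both arrays. While gld-1 passed 2-fold in all 6 scalings, oma-1 did not, at -0.93 in its highest. With equal medians 1 of the 15 was at least 2-fold lower, against 2.20% of all genes. With equal 75th percentiles it was again 1 of the 15, against 1.78% of all genes. The 8 measured sperm markers, 4 below and 4 above 0, had a median of 0.05, whose sign changed between scalings. Their summed signal was 24197 in a-SWCNT and 20408 in control worms. Most of it came from msp genes, with msp-31 at 11223 in a-SWCNT and 8278 in control worms. The lowest sperm markers were gsp-4 (-0.72) and gsp-3 (-0.66). By their type, the msp and gsp probe sets may bind more than 1 similar transcript. The sperm markers spe-9, spe-26 and fer-1 were below the floor on both arrays. Of the somatic lists, 5 of 5 neuron and 5 of 5 muscle markers were below 0, against 52.1% of all genes, with medians of -0.29 and -0.55, and 3 of 4 intestine and 3 of 5 hypodermis markers were above 0, with medians of 0.32 and 0.14 (the hypodermis median changed sign between scalings). With equal 75th percentiles, 3 of the 5 neuron markers were below 0. The muscle myosin gene unc-54 had 1866 in a-SWCNT and 3796 in control worms, 2.03-fold lower, and the intestinal proton pump gene vha-6 had 2499.9 in a-SWCNT and 1159.9 in control worms, 2.16-fold higher; neither passed 2-fold in all 6 scalings. The part of tissue make-up in the member values was not tested.

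Which members passed 2-fold varied little with how the arrays were brought to a common level. Under 6 scalings the member median lay between -0.39 and -0.07 and the median of all genes between -0.20 and 0.09. The members' median was below that of all genes by 0.14 to 0.18 in each. Most of these scalings multiply 1 array by a single factor, which moves both medians nearly together, so this difference could vary little. The genes alg-1, alg-2, alg-4 and drh-3 were at least 2-fold lower in all 6 scalings; rde-12 passed in 4 of them and was at -0.96 with equal 75th percentiles, and sago-1 passed only with equal hybridisation controls (-1.01). The floor had a larger effect than the scaling. With it at the 25th percentile of all signals, 2 of 39 members (5.13%) were at least 2-fold lower, against 3.91% of all genes. With it at the 75th percentile the count was 1 of 14 members (7.14%), against 2.103% of all genes. With no floor it was 1 of 39 (2.56%), below the 11.2% of all genes, so the higher share among the members was not seen there. Of the 38 members, 26 were below 0 and 5 above 0 in all 6 scalings, and 7 changed sign. The 5 were pash-1, eri-1, ego-1, ekl-1 and nrde-3, and the 7 were drh-1, ergo-1, rde-8, rde-11, wago-1, hrde-1 and sid-2. The share of all genes below 0 ran from 41.1% with equal 75th percentiles to 68.4% with equal hybridisation controls. How many of all genes kept their sign throughout was not counted. Over all genes the balance moved more, from 497 lower and 71 higher at 2-fold with equal hybridisation controls to 268 and 133 with the scaling used and 167 and 217 with equal 75th percentiles.

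**Figure D5:**
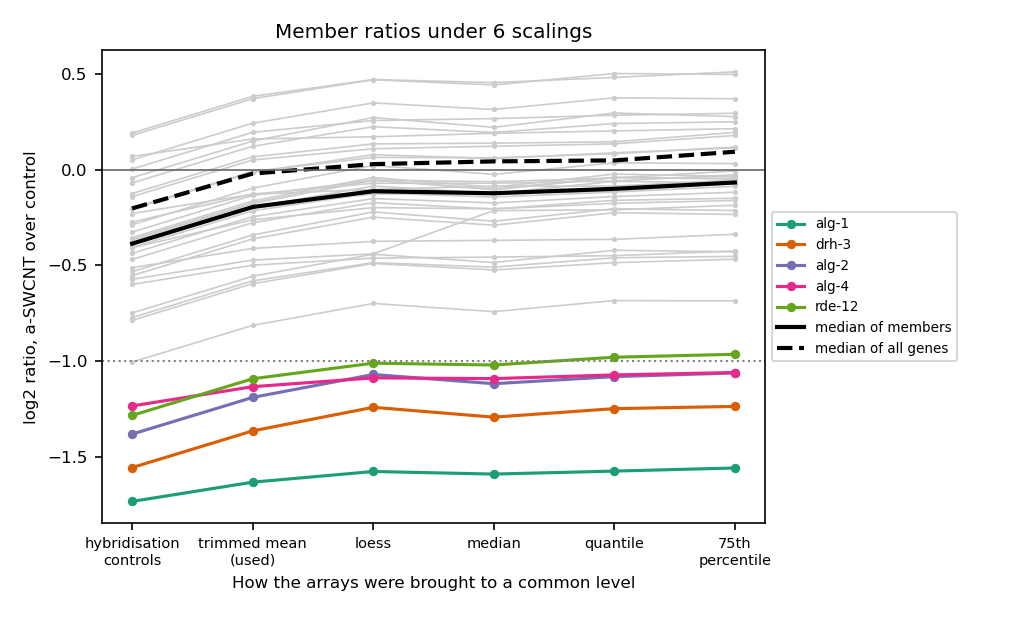
Log2 ratio, a-SWCNT over control, of the 38 measured members under 6 ways of bringing the arrays to a common level (as deposited is not drawn). Coloured lines are the 5 members at least 2-fold lower in the scaling used, grey lines the others, and thick lines the medians of the members (solid) and of all genes (dashed); alg-1, drh-3, alg-2 and alg-4 stay below the dotted line of 2-fold lower throughout.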

How the data were processed

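Biotin-labelled cRNA of whole worms was hybridised to Affymetrix arrays, per the labels' protocols. The deposited values are linear signal intensities, 1 for each probe set, made with MAS5 per the submitters' processing notes; which version, scaling target and detection calls were used is not given in the sources used here. Of 22625 probe sets, 22548 measured worm transcripts. From the intensities deposited, the a-SWCNT array was scaled to the control array's mean after removal of 2% of values at each end, signals below the pooled median (56.7) were raised to it, and log2 ratios were taken and averaged per gene, with Python 3.11.15, numpy 2.4.6, pandas 2.3.3 and statsmodels 0.14.6 (loess). Scaling by 1 factor hides a change shared by most transcripts. Gene names came from the platform annotation through gene identifiers of the WBcel235 table: 20766 probe sets had 1 gene, 887 several and 895 none. Groups followed the treatment label, and no test was run with 1 array each. Steps were tested on simulated data. All measured members are given; from other lists, genes past 2-fold and up to 2 highest and 2 lowest measured on both arrays could be named, and some of those are not printed. Members and lists were chosen with earlier results of these data known. Alternatives were other scalings, floors, folds and probe set choices.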

Additional observations from a re-analysis of the deposited data

How the results depend on the processing

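Of 405 values of single members under an alternative, 354 moved by less than the median gap between probe sets of a gene (0.42), 51 moved by more, 35 of these in the values as deposited, and 0 members past 2-fold changed sign. Part of this was fixed in advance. Other scalings by 1 factor shifted genes nearly alike and by little. The 32 members with 1 measured probe set could not change when the brightest was taken. The count of 354 is therefore no measure of robustness. Under the scalings other than as deposited, 4 to 6 members (10.5% to 15.8%) were at least 2-fold lower, against 1.78% to 5.29% of all genes. In the values as deposited, which keep the level difference between the arrays, 29 members (76.3%) were at least 2-fold lower, against 61.9% of all genes. The member median there was -1.34, against -1.16 for all genes. The floor mattered more than the scaling for the count of 5. It was 2 with the floor at the 25th percentile (alg-4 and drh-3), where dim probe sets enter the gene means (5.13% of members against 3.91% of all genes); 1 with the floor at the 75th percentile (rde-12), where 14 members were measured (7.14% against 2.103%); and 1 with no floor (drh-3; 2.56% against 11.2%), where 1 member, drsh-1, was at least 2-fold higher, through a probe set of 17.03 in a-SWCNT and 1.30 in control worms; 12.5% of all genes were so too. It was 3 with probe sets measured on both arrays (alg-2, drh-3 and rde-12), 9.68% of members against 2.81% of all genes. At 3-fold it was 1 (alg-1), 2.63% against 0.394%. Without probe sets that may bind several transcripts, which left 18 members, it was 4 (22.2% against 4.46%). With the brightest probe set of each gene it was 5 (13.2% against 3.45%). No paired analysis was possible because each group had 1 array. Of the 45 measured member probe sets, 10 were below the floor on 1 array, and their ratios are bounds.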
